A study of Mus musculus with 14 samples.

Results

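Antigen presentation on MHC class II and costimulation were followed through 10 genes of the 55487 in the count table, chosen by name: the class II chain genes H2-Aa, H2-Ab1 and H2-Eb1, the invariant chain gene Cd74, the transactivator gene Ciita, the peptide-loading genes H2-DMa and H2-DMb1, and the costimulation genes Cd80, Cd83 and Cd86. All 10 passed the filter on low counts. RNA was sequenced from 14 libraries of up to 100 mast cells each, sorted from the ears of mice. Libraries 1 to 5 came from resident mast cells of untreated mice and libraries 6 to 10 from resident mast cells of mice given MC903. Libraries 11, 13, 14 and 15, also from mice given MC903, carry the cell type label bone marrow mast cells, so the groups hold 5, 5 and 4 libraries. MC903 is calcipotriol, a vitamin D analogue that produces a dermatitis resembling atopic dermatitis when applied to mouse skin. The protocol names resident and integrin β7-positive mast cells as the cells collected, and since no source used here ties the bone marrow label to either, that group is called bone marrow cells after its label. Strain, sex, age, genotype and MC903 dose were not given in the sources used here, and neither was the number of mice behind the libraries. P-values therefore measure only the spread between these libraries, which may be partly technical. In pools of cells, fewer expressing cells and less RNA per cell cannot be told apart.

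Class II molecules are pairs of an α and a β chain that carry peptides from the endosome to the cell surface, where CD4 T cells read them. New pairs are held by the invariant chain CD74, and the H2-DM dimer later exchanges the remaining fragment of CD74 for an antigen peptide. The co-activator CIITA drives transcription of all these genes by docking on the factors RFX, CREB and NF-Y at a shared promoter module, and CD80 and CD86 give the second signal to T cells through CD28, while CD83 is a surface protein of mature dendritic cells that keeps class II and CD86 at the surface. Mast cells are not standard antigen-presenting cells, and macrophages, dendritic cells and B cells are the usual sources of class II transcripts in tissue.

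The promoter module itself can be read in the genome, and it is shown here because 3 genes with very different levels in these cells carry it. RefSeq windows on GRCm38.p6, from 250 bases before to 50 bases after a start site, were at hand for 5 of the 10 genes (H2-Aa, H2-Eb1, H2-DMa, H2-DMb1 and Cd80). Capitals mark a CREB-type element, TGACGTCA or TGATGATG, followed 10 to 25 bases later by GATTGG, the reverse complement of the CCAAT element that NF-Y binds. The stretches are chr17:34287824-34287943 on the minus strand, chr17:34305717-34305866 on the plus strand and chr17:34153105-34153134 on the plus strand, and the last, shortened to 30 bases because GENCODE M21 places it in the 5′ UTR, starts with the last 5 bases of its TGATGATG.
H2-Aa: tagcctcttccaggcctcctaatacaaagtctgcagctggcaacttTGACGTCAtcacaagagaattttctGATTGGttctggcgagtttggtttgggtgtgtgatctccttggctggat
H2-Eb1: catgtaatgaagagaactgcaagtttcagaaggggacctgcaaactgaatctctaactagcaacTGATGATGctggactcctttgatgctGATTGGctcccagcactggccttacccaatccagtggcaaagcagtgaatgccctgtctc
H2-DMb1: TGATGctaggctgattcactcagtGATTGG
The gap between the 2 elements was 17 bases in H2-Aa, 18 in H2-Eb1 and 19 in H2-DMb1. Searched on both strands, the ordered pair occurred in 19 of 32851 promoter windows of the same length (0.0578%), while GATTGG alone occurred in 16.1%, TGACGTCA in 1.79% and TGATGATG in 1.44%. The windows of H2-DMa and Cd80 did not hold the pair. Those of the other class II genes at hand, H2-DMb2, H2-Eb2, H2-Oa and H2-Ob, held GATTGG but not the pair. The letters searched were chosen after these promoters had been read, so the match describes the 3 sequences and is no evidence of binding.

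Total counts ranged from 13068078 to 31781926 per library, and the sum of 10 mast cell markers ranged from 84648 to 159415 CPM (counts per 1000000 of the library total scaled by its TMM factor) over all 14 libraries. Library 15 stood apart by its macrophage transcripts. The 12 macrophage markers searched summed to between 56.7 and 138 CPM in untreated resident cells, 54.6 and 173 CPM in MC903 resident cells, 80.0 and 348 CPM in bone marrow libraries 11, 13 and 14, and 12961 CPM in library 15. None of the 12 was at 0 counts in library 15, whereas 9 of 12 were at 0 in libraries 11 and 13 and 4 of 12 in library 14. Adgre1, which encodes F4/80, Csf1r, C1qc, Mrc1, Fcgr1, Mertk, Cd14 and Ms4a7 were among those at 0 in libraries 11 and 13. In library 14 Lyz2 was at 256 CPM, Csf1r at 10.3 CPM and Mrc1 at 9.14 CPM, and C1qb and C1qc were at 0. Of the 12 macrophage markers 9 passed the filter, and Cd68 was the one called, in the comparison of bone marrow with MC903 resident cells. It was higher with library 15 (3.24 ± 0.730, log2 fold change ± SE, edgeR adjusted p = 0.0392), 1 of 9 against 2.27% of all genes called. It was also higher without library 15 (1.78 ± 0.409, SE, edgeR adjusted p = 0.0159), 1 of 9 against 2.89%. Each comparison with bone marrow cells is therefore given with and without library 15.

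H2-Ab1 encodes the β chain of I-A (ENSMUSG00000073421.6, GRCm38 chr17:34257689-34269419, plus strand). Untreated resident libraries held 5.53, 3.23, 3.63, 6.90 and 19.8 CPM of it, MC903 resident libraries 1.45, 3.92, 0.643, 8.87 and 1.43 CPM, and bone marrow libraries 11, 13, 14 and 15 held 27.2, 13.2, 19.8 and 945 CPM. All 4 bone marrow libraries lay above all 5 MC903 resident libraries, while untreated library 5 lay inside the bone marrow range.

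H2-Aa, its α chain partner (ENSMUSG00000036594.15, chr17:34282744-34287823, minus strand), was at 3.50, 0, 3.52, 0 and 21.5 CPM in untreated resident cells, at 0, 0.462, 3.73, 0.872 and 0 CPM in MC903 resident cells, and at 0, 0, 15.3 and 716 CPM in bone marrow cells. It was listed at 0 counts in 6 of 14 libraries, among them bone marrow libraries 11 and 13, in which H2-Ab1 was at 652 and 382 counts. A count of 0 in those libraries allows at most 0.125 and 0.104 CPM (3 counts per library). Such floors cover counting error only, since reads copied by PCR and not tagged by molecule are no independent draws. The α chain transcript was thus not detectable in the same libraries in which the β chain transcript was plain.

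H2-Eb1, the β chain of I-E (ENSMUSG00000060586.11, chr17:34305867-34316674, plus strand), was at 0, 8.33, 2.62, 0 and 29.9 CPM in untreated resident cells, at 3.73, 0.693, 0.643, 0.0969 and 2.73 CPM in MC903 resident cells, and at 0.417, 1.32, 20.2 and 494 CPM in bone marrow cells. High values came from library 5 among the untreated, and from libraries 14 and 15 among the bone marrow libraries. The I-E α chain gene H2-Ea, annotated as the pseudogene H2-Ea-ps in GENCODE M21, did not pass the filter. It held at most 33 counts, in MC903 resident library 6 (1.71 CPM), and 0 in all 4 bone marrow libraries.

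Cd74, the invariant chain gene, was at 10.7, 2.37, 1.53, 8.27 and 4.27 CPM in untreated resident cells, at 2.28, 6.06, 4.05, 9.11 and 6.26 CPM in MC903 resident cells, and at 7.93, 5.65, 45.3 and 2712 CPM in bone marrow cells. Bone marrow libraries 11 and 13 lay within the range of the resident libraries, library 14 above it and library 15 far above it. Per kilobase of gene length, the 3 chain genes and Cd74 together gave 4.60 to 31.3 CPM per kb in untreated resident cells, 3.85 to 9.16 in MC903 resident cells, 15.5, 9.19 and 49.1 in bone marrow libraries 11, 13 and 14, and 2426 in library 15. Cd74 made up 66.6% of that sum in library 15, 54.99% in library 14 and 8.14% in untreated library 5. The class II signal of library 5 was therefore made of chain genes with little invariant chain, unlike that of library 15.

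**Figure D1:**
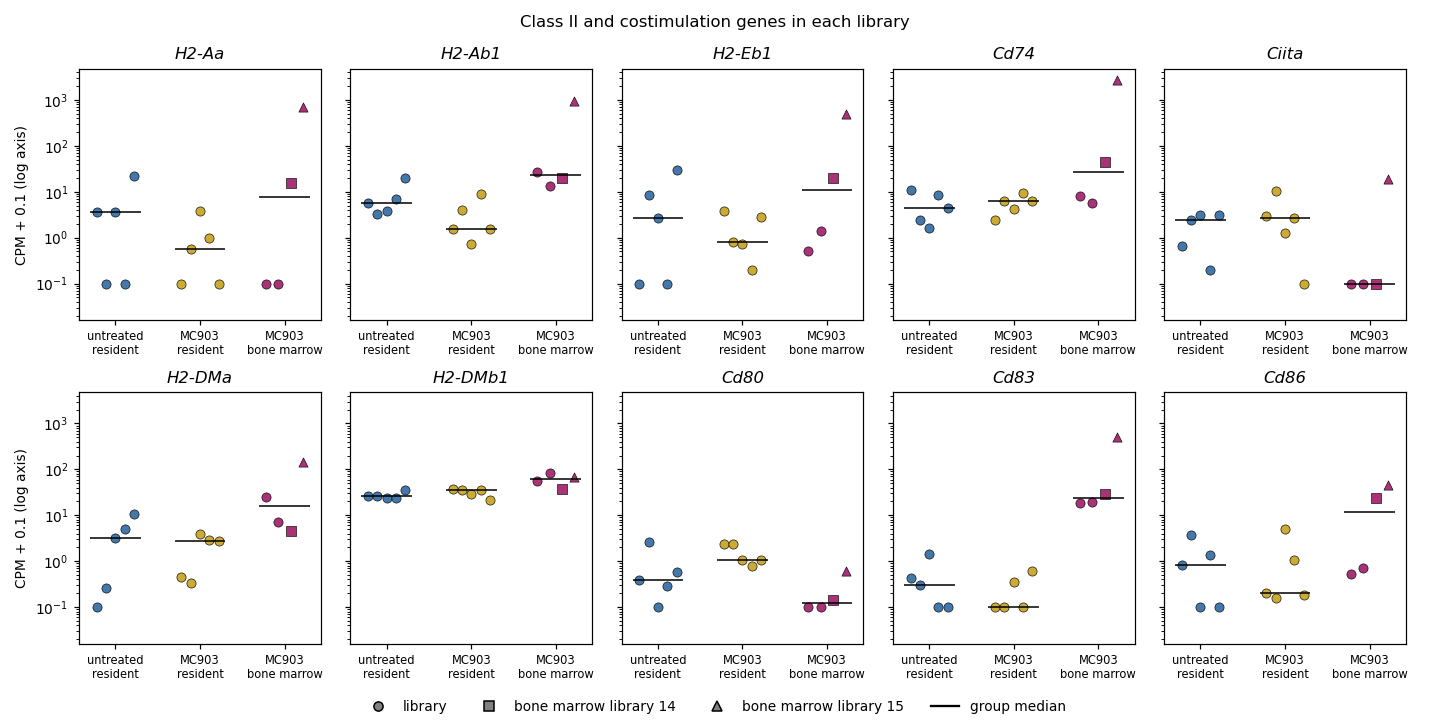
CPM + 0.1 on a log axis for each of the 10 genes in each library; points are libraries, lines are group medians, and bone marrow libraries 14 and 15 have their own symbols. H2-DMb1 was the one gene above 20 CPM in all 14 libraries, Cd83 separated the 4 bone marrow libraries from the 10 resident libraries, and library 15 was the highest bone marrow library for every gene except H2-DMb1.

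Ciita (ENSMUSG00000022504.10, chr16:10480059-10528418, plus strand) was at 0.564, 2.29, 3.07, 0.0946 and 3.07 CPM in untreated resident cells, at 2.90, 10.04, 1.16, 2.52 and 0 CPM in MC903 resident cells, and at 0, 0, 0 and 18.5 CPM in bone marrow cells. It was low in 8 of the 10 resident libraries, at 2 counts, under the floor of 3 counts, in library 4, and at 0 in library 10. It was at 0 in 3 bone marrow libraries and present in library 15. The antisense gene Dexi overlaps it and was at 1.82 to 23.9 CPM, and without a stated strand setting reads from the pair cannot be told apart. Libraries 11, 13 and 14 combined H2-Ab1 at 13.2 to 27.2 CPM with no Ciita count.

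H2-DMb1, the β chain of the peptide exchange factor (ENSMUSG00000079547.4, chr17:34153072-34160230, plus strand), was at 25.9, 26.1, 23.4, 24.0 and 35.96 CPM in untreated resident cells, at 37.2, 35.9, 28.5, 34.9 and 21.7 CPM in MC903 resident cells, and at 56.7, 84.4, 38.1 and 68.9 CPM in bone marrow cells. It was the steadiest of the 10 genes and was present in all 14 libraries, and all 4 bone marrow libraries lay above all 10 resident libraries. Its level in libraries 11, 13 and 14 was 82.2%, 122% and 55.3% of that in library 15, where the corresponding shares for Cd74 were 0.292%, 0.208% and 1.67%. Reads shared with its near copy H2-DMb2, which was at 0 to 3.73 CPM, could have been assigned to either gene.

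H2-DMa, the α chain of the same factor (ENSMUSG00000037649.10, chr17:34119541-34139101, plus strand), was at 0, 0.163, 3.18, 4.92 and 10.5 CPM in untreated resident cells, at 0.363, 0.231, 3.86, 2.86 and 2.60 CPM in MC903 resident cells, and at 24.7, 7.21, 4.34 and 144 CPM in bone marrow cells. Bone marrow libraries lay above all MC903 resident libraries and overlapped the untreated ones. Per kilobase, H2-DMb1 exceeded H2-DMa by 4.71-fold to 327-fold in the 12 libraries other than 1 and 15, the ratio in library 15 was 0.982, and in library 1 H2-DMa was at 0. The antisense gene Brd2 overlaps H2-DMa and was at 56.0 to 363 CPM, so without a stated strand setting the H2-DMa counts are uncertain.

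Cd83 (ENSMUSG00000015396.4, chr13:43784775-43803132, plus strand) was at 0.339, 0.204, 1.35, 0 and 0 CPM in untreated resident cells, at 0, 0, 0.257, 0 and 0.504 CPM in MC903 resident cells, and at 18.6, 19.3, 28.9 and 512 CPM in bone marrow cells. The lowest bone marrow library held 446 counts and the highest resident library 36. Library 15 was again the highest, and all 4 bone marrow libraries were above every resident library. In libraries 11 and 13, where 9 of 12 macrophage markers were at 0, the Cd83 level was 3.63% and 3.76% of that of library 15, against 0% and 0% for Csf1r, 0% and 0.423% for C1qa, 0.174% and 0.120% for C1qb and 19.7% and 8.99% for Cd68. The part of macrophage transcripts in the Cd83 values was not tested.

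Cd86, a ligand of CD28 and CTLA-4 (ENSMUSG00000022901.13, chr16:36603869-36666081, minus strand), was at 0.734, 3.64, 0, 1.28 and 0 CPM in untreated resident cells, at 0.104, 0.0577, 4.95, 0.969 and 0.0840 CPM in MC903 resident cells, and at 0.417, 0.624, 23.3 and 46.2 CPM in bone marrow cells. The bone marrow group was split, with libraries 11 and 13 among the resident values and libraries 14 and 15 above them. Library 14 reached 50.3% of the Cd86 level of library 15, against 2.09% for H2-Ab1 and 1.67% for Cd74.

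Cd80, the other ligand of CD28 (ENSMUSG00000075122.5, chr16:38455561-38496335, plus strand), was at 0.282, 2.53, 0, 0.189 and 0.490 CPM in untreated resident cells, at 2.28, 2.31, 0.964, 0.678 and 0.966 CPM in MC903 resident cells, and at 0, 0, 0.0425 and 0.505 CPM in bone marrow cells. It was the one gene whose 4 bone marrow values all lay below the 5 MC903 resident values. Library 15, the highest for most of the other genes, held 10 counts of Cd80.

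Levels of different genes were ordered per kilobase. In untreated resident cells H2-DMb1 was first at 16.1 ± 3.03 CPM per kb (SD, n = 5), followed by H2-Eb1 at 4.20 ± 6.48, Cd74 at 3.24 ± 2.35 and H2-Ab1 at 3.04 ± 2.66. In MC903 resident cells H2-DMb1 was first at 18.8 ± 3.85 CPM per kb (SD, n = 5), then Cd74 at 3.31 ± 1.53 and H2-Ab1 at 1.27 ± 1.31. In both groups the range of mean ± SD of H2-DMb1 lay above that of the next gene, every other pair of neighbours overlapped in that range, and Cd83 was last, at 0.147 ± 0.218 and 0.0592 ± 0.0879 CPM per kb. In bone marrow cells without library 15 the order was H2-DMb1 at 35.5 ± 13.9 CPM per kb (SD, n = 3), Cd74 at 11.7 ± 13.3, Cd83 at 8.66 ± 2.24, H2-Ab1 at 7.82 ± 2.72, H2-Eb1 at 3.75 ± 5.73, H2-DMa at 3.50 ± 3.20, Cd86 at 2.21 ± 3.59 and H2-Aa at 1.34 ± 2.33, with Cd80 at 0.00383 ± 0.00663 and Ciita at 0. Here all neighbours down to Cd80, H2-DMb1 and Cd74 included, overlapped in mean ± SD. With library 15 included, Cd74 was first at 413 ± 802 CPM per kb (SD, n = 4) and H2-DMb1 sixth in order at 36.9 ± 11.6.

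The first comparison asked whether class II and costimulation genes differed between resident mast cells of MC903-treated and untreated skin, and no difference passed the test. Of the 10 genes, 0 were called at an adjusted p-value under 0.05 by edgeR's quasi-likelihood test with Benjamini-Hochberg adjustment, against 2.25% of all 21014 genes tested (edgeR adjusted p from 0.735 to 0.995), and 0 were called without library 15, against 2.43%. None was without overlap between the groups, against 2.17% of all genes higher and 3.16% lower. None had an unadjusted edgeR p under 0.05, against 12.6% of all genes. By limma with sample weights 0 were called, against 6.46%, and by DESeq2, which gave an adjusted p for 5 of the 10, also 0, against 5.44%. H2-DMb1 was at 31.7 ± 6.48 CPM (SD, n = 5) in MC903 resident and 27.1 ± 5.10 CPM (SD, n = 5) in untreated resident libraries, which gave 0.23 ± 0.274 (log2 fold change ± SE). The 3 chain genes had negative estimates with wide errors, -1.25 ± 1.22 (SE) for H2-Ab1, -2.36 ± 1.94 for H2-Eb1 and -2.54 ± 2.33 for H2-Aa, and each had its highest untreated value in library 5. Cd74 had an estimate of 0.04 ± 1.39 (SE). The median estimate of the 10 genes was -0.44, and that of all genes tested 0.24.

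The second comparison, of bone marrow with resident mast cells of MC903-treated mice, called Cd83 alone. Cd83 rose by a log2 fold change of 9.78 ± 1.82 (SE; 145 ± 245 CPM, SD, n = 4, against 0.152 ± 0.226 CPM, SD, n = 5; edgeR adjusted p = 0.0168). The call was 1 of 10 genes, against 2.27% of all genes tested, and 8 of the 10 had an unadjusted edgeR p under 0.05, against 17.7% of all genes tested (6 of 10 against 33.6% without library 15). Without library 15, Cd83 had a bone marrow mean of 22.3 ± 5.77 CPM (SD, n = 3) and rose by 7.13 ± 1.56 on the log2 scale (SE, edgeR adjusted p = 0.0112), again the one call among the 10 genes, against 2.89% of all 24370 genes then tested. Without libraries 14 and 15 together, an alternative chosen after seeing the data, it was 6.96 ± 1.71 (SE, edgeR adjusted p = 0.0191). In the 17 alternatives that gave Cd83 an adjusted p in this comparison it was called each time (adjusted p from 0.00162 to 0.0440).

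The other genes did not pass in that comparison by edgeR, with all libraries or without library 15. Single alternatives called H2-Ab1 and Cd74 with a minimum mean of 10 CPM (edgeR adjusted p = 0.0294 and 0.0403), H2-Ab1 with protein-coding genes only (0.0492), Cd86 with no filter on low counts (0.0171) and H2-DMa by DESeq2 (adjusted p = 0.0203). H2-Ab1 gave 6.26 ± 1.4997 (SE, edgeR adjusted p = 0.0587) with all libraries and 2.63 ± 0.820 (SE, edgeR adjusted p = 0.0819) without library 15, Cd74 6.96 ± 1.77 (SE, edgeR adjusted p = 0.0754) and 1.83 ± 0.799 (SE, edgeR adjusted p = 0.122). H2-DMb1, at 62.0 ± 19.6 CPM (SD, n = 4) against 31.7 ± 6.48 CPM (SD, n = 5), gave 0.97 ± 0.290 (SE, edgeR adjusted p = 0.0904). The values of 5 genes did not overlap between the groups, with H2-Ab1, H2-DMa, H2-DMb1 and Cd83 higher in bone marrow cells and Cd80 lower, while 3.97% of all genes tested were higher and 4.32% lower without overlap. These 5 also did not overlap without library 15, against 5.13% higher and 9.25% lower. The median log2 fold change of the 10 genes was 5.38 with library 15 and 2.27 without it, and that of all genes tested was -0.28 and -0.84.

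**Figure D2:**
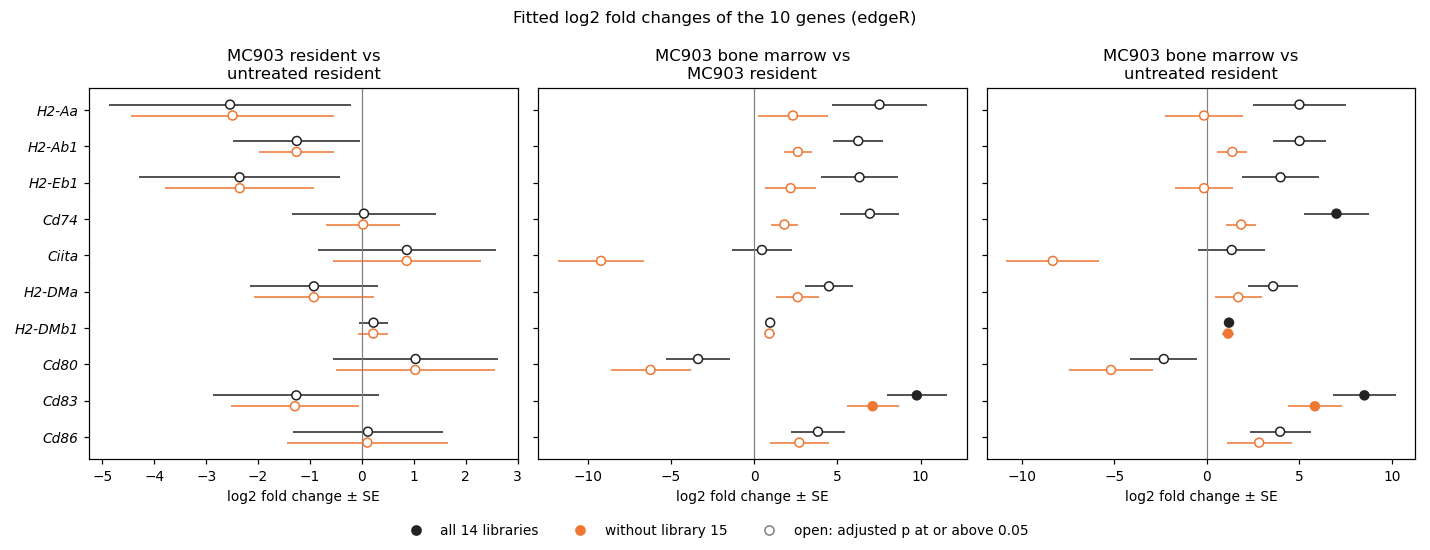
Fitted log2 fold changes with standard errors of the 10 genes in the 3 comparisons, with all 14 libraries (black) and without library 15 (orange); filled points were called by edgeR, and the horizontal scales differ between panels. The estimates of H2-Aa, H2-Ab1, H2-Eb1, Cd74 and Ciita in bone marrow cells moved by more than 3 log2 units when library 15 was left out, those of H2-DMb1 by less than 0.1, and Cd83 was called in both comparisons either way.

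Compared with untreated resident cells, bone marrow cells were higher in Cd83, Cd74 and H2-DMb1, 3 of 10 genes against 6.87% of all genes tested. Cd83 gave a log2 fold change of 8.51 ± 1.69 (SE; 145 ± 245 CPM, SD, n = 4, against 0.378 ± 0.560 CPM, SD, n = 5; edgeR adjusted p = 0.00939). H2-DMb1, with means of 62.0 ± 19.6 CPM (SD, n = 4) and 27.1 ± 5.10 CPM (SD, n = 5), rose by 1.196 ± 0.290 on the log2 scale (SE, edgeR adjusted p = 0.0130). These 2 genes were the ones without overlap, both higher, against 5.13% of all genes tested higher and 5.28% lower without overlap. Cd74 gave 7.001 ± 1.77 (SE; 693 ± 1346 CPM, SD, n = 4, against 5.43 ± 3.94 CPM, SD, n = 5; edgeR adjusted p = 0.0361), with overlapping libraries. This comparison shares its bone marrow libraries with the one before.

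Without library 15, Cd83 (5.84 ± 1.47, SE, edgeR adjusted p = 0.0162) and H2-DMb1 (1.15 ± 0.323, SE, edgeR adjusted p = 0.0334) were called against untreated resident cells, 2 of 10 genes against 6.36% of all genes tested. Both were higher without overlap, against 6.06% of all genes higher. Ciita was lower without overlap, against 7.77% of all genes. The lowest untreated library, library 4, held 2 counts of it (0.0946 CPM), under the floor of 3 counts, and cannot be told apart from the 0 counts of the bone marrow libraries. The median log2 fold change of the 10 genes went from 3.97 to 1.26 and that of all genes from -0.14 to -0.62. Without libraries 14 and 15 they gave 5.65 ± 1.62 (SE, edgeR adjusted p = 0.0382) and 1.43 ± 0.370 (SE, edgeR adjusted p = 0.0175). Over all alternatives Cd83 was called in 17 of 17, with adjusted p from 0.00255 to 0.0382, and H2-DMb1 in 16 of 18, with adjusted p from 0.000836 to 0.0860. H2-DMb1 was lost without library 13 (1.007, edgeR adjusted p = 0.0860) and with no filter on low counts (1.21, edgeR adjusted p = 0.0602).

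Cd74 was not called without library 15 (19.6 ± 22.3 CPM, SD, n = 3; 1.85 ± 0.799, SE, edgeR adjusted p = 0.151), and it was called in 7 of 17 alternatives (adjusted p from 0.0155 to 0.858). H2-Ab1 went from 5.01 ± 1.41 (SE, edgeR adjusted p = 0.0592) to 1.37 ± 0.809 (SE, edgeR adjusted p = 0.250), and was called with a minimum mean of 10 CPM (edgeR adjusted p = 0.0236) and with protein-coding genes only (0.0465). With no filter on low counts Cd86 was called (edgeR adjusted p = 0.00727), and by DESeq2 H2-DMa (adjusted p = 0.0491). The estimates of H2-Aa and H2-Eb1 went from 4.999 and 3.98 to -0.15 and -0.15, and with bone marrow means of 5.10 ± 8.84 and 7.30 ± 11.1 CPM (SD, n = 3) against 5.71 ± 9.02 and 8.16 ± 12.6 CPM (SD, n = 5) neither differed beyond its spread. The macrophage markers of library 15 moved with the class II chain genes and Cd74, and their part in these values was not tested.

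Ciita and Cd80 were at or under the floor of 3 counts in all of libraries 11, 13 and 14. These libraries also held counts of the fewest genes, 16285, 16025 and 19817, against 21874 to 35246 in the resident libraries and 32814 in library 15, and the part of this in the 0 counts was not tested. With that floor per library (a mean of 0.119 CPM), Ciita was at least 28.0-fold lower in these 3 libraries than the mean of MC903 resident cells and at least 15.3-fold lower than that of untreated resident cells. The first of these limits rested on library 7, without which it was 13.8-fold. Both limits set the floor against a group mean and cover counting error only. Single resident libraries were under the same floor, MC903 resident library 10 at 0 counts and untreated library 4 at 2. With library 15, at 18.5 CPM, the direction turned round, with a bone marrow mean of 4.62 ± 9.24 CPM (SD, n = 4) and estimates of 0.47 ± 1.80 (SE, edgeR adjusted p = 0.923) and 1.34 ± 1.81 (SE, edgeR adjusted p = 0.748). Without it the tests gave edgeR adjusted p = 0.0599 and 0.0517, so Ciita was called neither way (adjusted p from 0.0599 to 0.990 and from 0.0517 to 0.835 over all alternatives). Cd80 was at least 12.1-fold and 5.88-fold lower (edgeR adjusted p = 0.110 and 0.153, and 0.369 and 0.516 with library 15), and the limit against untreated resident cells rested on library 2, without which it was 2.02-fold. Cd80 was called against MC903 resident cells by limma with sample weights (log2 fold change -5.08, adjusted p = 0.0348), in 1 of 17 alternatives.

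**Figure D3:**
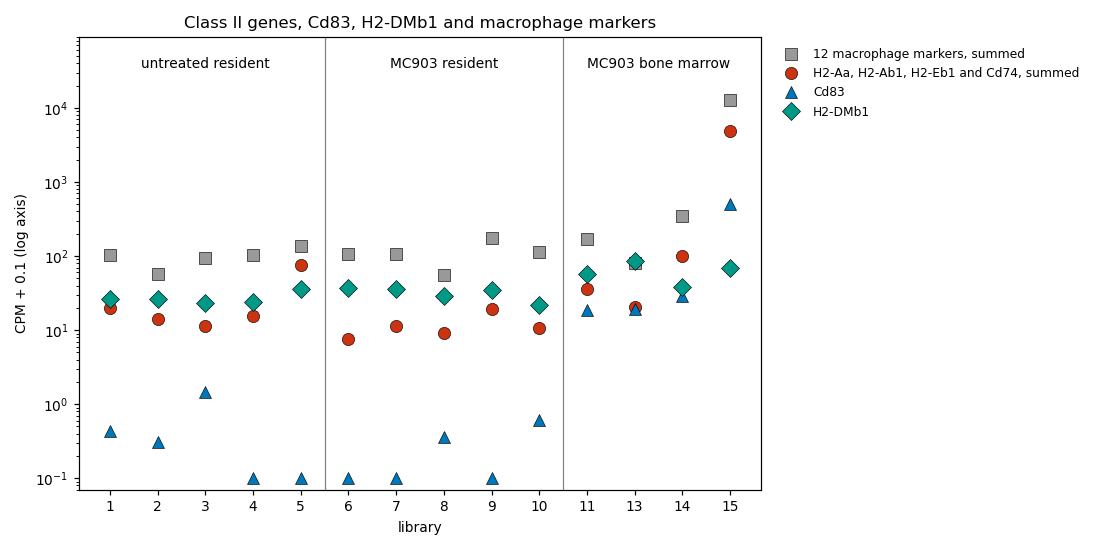
CPM + 0.1 on a log axis in each library for the sum of 12 macrophage markers, the sum of H2-Aa, H2-Ab1, H2-Eb1 and Cd74, and for Cd83 and H2-DMb1. In library 15 the class II sum reached 4866 CPM and the macrophage sum 12961 CPM. Cd83 was at 18.6, 19.3 and 28.9 CPM in libraries 11, 13 and 14, with macrophage sums of 172, 80.0 and 348 CPM. The macrophage sums of the resident libraries were 54.6 to 173 CPM. The part of macrophage transcripts in the Cd83 values was not tested.

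Other antigen-presenting cells were looked for by their markers as well. Of the 11 dendritic and Langerhans cell markers, Clec10a was at 1241 to 3263 CPM in all 14 libraries and made up nearly the whole sum. Ccr7 and Clec9a, markers of migratory and of conventional type 1 dendritic cells, were at 0 counts in all 4 bone marrow libraries, Itgax was at 0 in libraries 11, 13 and 14 and 2.63 CPM in library 15, and Zbtb46 was at 15.7 CPM in library 14. Batf3, a transcription factor of type 1 dendritic cells, was at 0, 0.0693, 0.0425 and 9.24 CPM in libraries 11, 13, 14 and 15, the last the highest of the 14. Xcr1, a chemokine receptor of the same cells, was at 0, 0.0693, 0.595 and 0.253 CPM, against up to 5.58 CPM in resident library 4. Epcam, also on this list, had its highest value of the 14 in library 13, at 5.54 CPM. No resident library exceeded 1.96 CPM of Epcam, library 15 held 0.354 CPM, and libraries 11 and 14 held none. For Cd207, Cd209a and Flt3 library 15 gave the bone marrow maximum, 0.152, 0.253 and 1.26 CPM. Resident maxima of these genes were higher, 2.65, 7.48 and 1.67 CPM. Of the 8 dendritic cell markers tested, 0 were called in the 3 comparisons, against 2.25%, 2.27% and 6.87% of all genes, and 0 without library 15, against 2.43%, 2.89% and 6.36%. The 5 B cell markers summed to 0.0693 to 26.6 CPM in bone marrow cells, 0.242 to 9.90 CPM in MC903 resident cells and 0.178 to 3.78 CPM in untreated resident cells, with Cd79b at 12.4, 0, 26.6 and 5.45 CPM in bone marrow libraries 11, 13, 14 and 15 and Cd79a, Ms4a1 and Pax5 at 0 in the first 3 of them. Cd79b was called against untreated resident cells, in which it was at 0 counts (edgeR adjusted p = 0.00939), 1 of 3 B cell markers tested, against 6.87% of all genes. The basophil protease gene Mcpt8 was at 976, 205, 83.2 and 46.5 CPM in the bone marrow libraries and at 3.15 to 57.0 CPM in the resident ones. It was called only without library 15 (edgeR adjusted p = 0.0471 against MC903 resident and 0.0354 against untreated resident cells). That was 1 of 3 basophil markers tested each time, against 2.89% and 6.36% of all genes. The other basophil markers were not called. Cd200r3 was at 525, 531, 580 and 223 CPM against 424 to 710 CPM in resident libraries, and Prss34 at 4.76, 15.8, 0.383 and 0 CPM against 0 to 42.01 CPM. The endothelial and myeloid gene Pecam1 was at 7.44 to 39.7 CPM against 0 to 6.73 CPM in resident libraries. It was called against untreated resident cells (edgeR adjusted p = 0.00483, and 0.00258 without library 15). With all libraries that was 1 of 3 endothelial markers tested, against 6.87% of all genes. Of the other endothelial markers, Cdh5 was at 0.0835, 0, 0 and 0 CPM against up to 3.35 CPM in resident libraries, and Kdr at 0, 0, 0 and 5.40 CPM against up to 9.06 CPM. Without library 15 Kdr was called lower in both bone marrow comparisons (edgeR adjusted p = 0.0282 and 0.0312). That was 1 of 3 endothelial markers lower each time, and Pecam1 was 1 of 3 higher against untreated resident cells. Of all genes, 2.89% and 6.36% were called in these comparisons. The 6 T cell markers summed to 4.01, 79.9, 28.6 and 37.0 CPM in bone marrow libraries 11, 13, 14 and 15, to 4.21 to 43.7 CPM in MC903 resident and to 0.0748 to 5.64 CPM in untreated resident libraries. Cd4 made up the whole sum in library 13, with the other 5 markers at 0, and 31.5 CPM of it in library 15, while Cd3d was at 16.8 CPM in library 14. This list had a median log2 fold change of 4.52 against untreated resident cells (3.98 without library 15), with 0 of 6 called either way, against 6.87% and 6.36% of all genes. The eosinophil, neutrophil, keratinocyte and fibroblast markers summed to at most 0.152, 5.32, 4.08 and 3.48 CPM in bone marrow libraries. The part of these cells in the results was not tested.

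Around the 10 genes, the class II accessory and processing genes were mostly low. Of 12 listed, 9 passed the filter. No gene of this list was called in either comparison with MC903 resident cells, with 9 tested, against 2.25% and 2.27% of all genes. Without library 15 none of 10 was, against 2.43% and 2.89%. By mean CPM the highest in both resident groups were Ctsb, a lysosomal protease at 169 to 364 CPM in every library but 15, and March8, a ubiquitin ligase for membrane proteins. In bone marrow cells the means of Ctss (559 CPM), Lgmn (269 CPM) and Ctsl (166 CPM) lay above that of March8 (70.6 CPM), for Lgmn and Ctsl through library 15 alone. Per kilobase, Ctss (11.3) also lay above March8 (8.16) in MC903 resident cells. Ctss, the protease that trims the invariant chain, rose in bone marrow against untreated resident cells by 6.15 ± 1.55 (SE; 559 ± 928 CPM, SD, n = 4, against 7.86 ± 9.62 CPM, SD, n = 5; edgeR adjusted p = 0.0350), 1 of 9 genes against 6.87% of all genes, and it was not called without library 15 (edgeR adjusted p = 0.101). Ctss was at 84.9, 107, 93.2 and 1951 CPM in bone marrow libraries 11, 13, 14 and 15 and at 27.7 CPM or less in the 10 resident libraries. Its bone marrow and resident values did not overlap.

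Among 14 regulators of Ciita and of class II promoters, Ifngr1, the ligand-binding chain of the interferon-γ receptor, was the one called gene. It was 1 of 14 in each of the first 2 comparisons, against 2.25% and 2.27% of all genes, and 0 of 14 were called in the third, against 6.87%. Ifngr1 fell in MC903 resident against untreated resident cells by a log2 fold change of -1.10 ± 0.277 (SE; 36.2 ± 11.8 against 77.4 ± 22.2 CPM, SD, n = 5 and n = 5; edgeR adjusted p = 0.0385). Its bone marrow mean was 79.1 ± 18.0 CPM (SD, n = 4), above MC903 resident cells by 1.13 ± 0.290 (SE, edgeR adjusted p = 0.0428). The difference was 1.012 ± 0.308 without library 15, and it was not called then (SE, edgeR adjusted p = 0.0761). Spi1, which encodes PU.1, was at 82.2 to 159 CPM in every library but 15, in which it was at 344 CPM, and Ifngr2, the other receptor chain, was at 80.5 to 167 CPM. The promoter factors Rfx5, Rfxap, Rfxank, Nfya, Nfyb, Nfyc and Creb1 had counts in all 14 libraries and were called in none of the 3 comparisons. Irf8 and Irf4 were at 49.3 and 15.8 CPM in library 15 and at 0.208 CPM or less in the other bone marrow libraries.

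Of 17 other costimulatory and coinhibitory ligands, 13 passed the filter. Pdcd1lg2, which encodes the PD-1 ligand PD-L2, fell in MC903 resident against untreated resident cells by -3.11 ± 0.625 (SE; 1.98 ± 0.819 against 17.2 ± 10.7 CPM, SD, n = 5 and n = 5; edgeR adjusted p = 0.00668), and had a bone marrow mean of 11.8 ± 4.30 CPM (SD, n = 4), above MC903 resident cells by 2.57 ± 0.630 (SE, edgeR adjusted p = 0.0333). Without library 15 both calls held (edgeR adjusted p = 0.00609 and 0.0325). Pdcd1lg2 was the 1 called of 13 in both comparisons, against 2.25% and 2.27% of all genes. Against untreated resident cells 3 of 13 ligands rose in bone marrow cells, against 6.87% of all genes called: Tnfsf9, the ligand of 4-1BB, by 4.80 ± 1.33 (SE, edgeR adjusted p = 0.0397), Cd276, which encodes B7-H3, by 2.09 ± 0.422 (SE, edgeR adjusted p = 0.00318), and Lgals9, which encodes galectin-9, by 0.77 ± 0.181 (SE, edgeR adjusted p = 0.0103). Cd276 was at 151, 66.9, 102 and 77.3 CPM in bone marrow libraries 11, 13, 14 and 15 against 13.8 to 38.9 CPM in untreated resident libraries, and its call and that of Lgals9 held without library 15, while that of Tnfsf9 did not (2 of 14 then tested, against 6.36% of all genes). Without library 15, Cd276 and Lgals9 were also called against MC903 resident cells (edgeR adjusted p = 0.0463 and 0.0363), with Pdcd1lg2 3 of 14, against 2.89% of all genes. Cd40, the receptor through which T cells activate presenting cells, was at 0 counts in the untreated resident libraries and in bone marrow libraries 11, 13 and 14, at 34.04 CPM in library 15, and at 0.622, 5.02, 5.01, 0 and 0.0840 CPM in MC903 resident libraries 6 to 10.

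**Figure D4:**
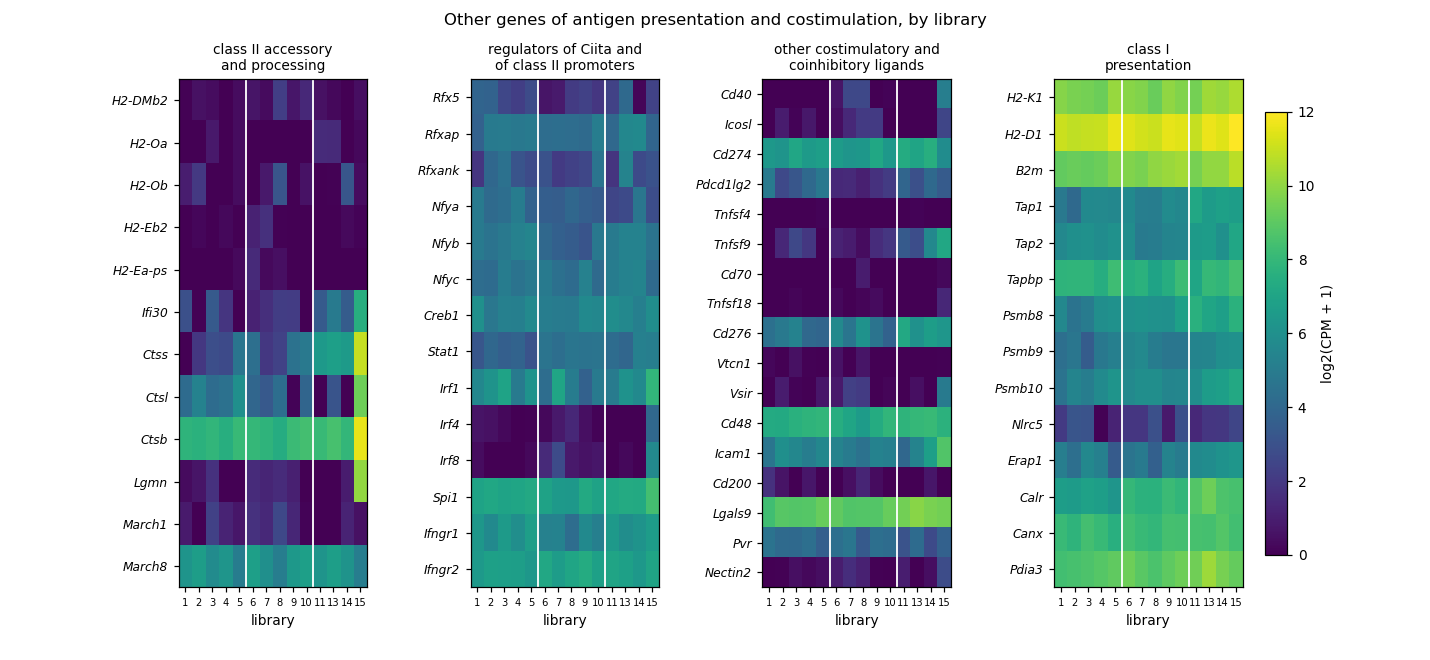
Log2(CPM + 1) of the 4 other gene lists in each library, with white lines between untreated resident (1 to 5), MC903 resident (6 to 10) and bone marrow libraries (11 to 15). Class I genes had counts in all 14 libraries (Nlrc5 least, at 0.0473 CPM in library 4), whereas most class II accessory genes were dark outside library 15. In library 15 Ctsb, Ctss, Lgmn, Ctsl and Ifi30 stood out, and so did Irf8 of the regulators list. H2-DMb2, H2-Oa, H2-Ob, H2-Eb2, H2-Ea-ps and March1 were dark there as well, at 0.455 CPM or less.

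All 14 class I presentation genes listed passed the filter, and 7 of 14 were higher in bone marrow than in untreated resident cells, with 0 lower, against 6.87% of all genes tested called. The largest increases were of Calr, the chaperone calreticulin (2.23 ± 0.202, SE; 466 ± 132 against 99.6 ± 15.03 CPM, SD, n = 4 and n = 5; edgeR adjusted p = 9.06e-07), the immunoproteasome subunit Psmb8 (1.82 ± 0.298, SE, edgeR adjusted p = 0.000452), the peptide transporter subunit Tap1 (1.58 ± 0.303, SE, edgeR adjusted p = 0.00205) and Psmb10 (1.22 ± 0.312, SE, edgeR adjusted p = 0.0188). Without library 15, 4 of 14 were called, Calr, Psmb8, Tap1 and Pdia3, a partner of calreticulin, against 6.36% of all genes. Against MC903 resident cells 3 of 14 were higher, against 2.27% of all genes called: Tap1 by 1.37 ± 0.302 (SE, edgeR adjusted p = 0.0173), Tap2 by 1.26 ± 0.261 (SE, edgeR adjusted p = 0.0108) and Calr by 0.97 ± 0.198 (SE, edgeR adjusted p = 0.00930), all of which were also called without library 15, against 2.89% of all genes. Calr alone, 1 of 14 against 2.25% of all genes, was called between MC903 resident and untreated resident cells (1.26 ± 0.190, SE, edgeR adjusted p = 0.000632), joined by B2m without library 15 (0.66 ± 0.175, SE, edgeR adjusted p = 0.0445; 2 of 14 against 2.43%). The median log2 fold change of the class I list against untreated resident cells was 0.88, that of the class II accessory list 2.15 and that of all genes tested -0.14. Without library 15 they were 0.78, 0.35 and -0.62, so the order of the 2 lists turned round. A difference between the lists was not tested.

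The pattern over libraries of 8 of the 10 genes, those with a mean of at least 5 CPM in a group (all but Ciita and Cd80), was compared with 9319 named genes by Pearson's r of log2 CPM. The libraries share groups and depth, so r is a description, with 14 points, or 13 without library 15. H2-DMb1 was most like Rhog (r = 0.923), Galk1 (0.897) and Mvb12a (0.883), and these 3 were also nearest without library 15 (0.915, 0.907 and 0.879). Cd83 was most like Rpl14-ps1 (0.958), Itgb2, which encodes the β2 integrin chain (0.922), and Rpl10a-ps1 (0.921), and without library 15 most like Rpl14-ps1 (0.966), Rpl10a-ps1 (0.933) and Rps3a2 (0.923), of which the first 2 are named as pseudogenes of ribosomal protein genes and can share reads with their parents. For Cd74 the nearest gene over 14 libraries was Ms4a6c (r = 0.930, but Spearman's rho 0.144), and over 13 libraries Rbl1 (0.836). H2-Ab1 was nearest to Pepd (0.911) and Spi1 (0.909), H2-Aa to Mrc1 (0.833), H2-Eb1 to Icam1 (0.828), Cd86 to Ccr2 (0.856) and H2-DMa to Siva1 (0.893) over 14 libraries. Over the 13 libraries without library 15 the nearest genes were others, Cct5 for H2-Ab1 (0.906), Acp6 for H2-Aa (0.868), Ccdc40 for H2-Eb1 (0.798), Pnkd for Cd86 (0.845) and Mif for H2-DMa (0.890).

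Among the 10 genes themselves, r between H2-Aa and H2-Ab1 was 0.62 over 14 libraries and 0.19 over 13, between H2-Aa and H2-Eb1 0.61 and 0.30, and between H2-Ab1 and H2-Eb1 0.56 and 0.09. Between Cd74 and H2-Ab1 it was 0.85 and 0.51. For Ciita with H2-Ab1 it was 0.18 and -0.34, and with Cd74 0.20 and -0.56. Each r between chain genes was lower without library 15, at levels where several libraries held few counts.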

How the data were processed

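The deposited values are whole-number counts, not normalized, which the authors made with STAR and featureCounts on mm10, per the submitters' processing notes. Versions, strand setting and trimming were not given in the sources used here. Complementary DNA was made with SMART-Seq HT and libraries with Nextera XT, per the labels' protocols. GENCODE M21 (GRCm38) held 55094 of the 55487 identifiers at their exact version and served for biotypes and overlaps, and 55394 identifiers matched a symbol. The 14 count columns were matched to samples by library number.

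After filterByExpr (by group, at least 10 counts and 15 in total) 21014 genes remained, and TMM factors were computed. All 3 groups entered 1 fit without covariates in edgeR 4.0.16 (robust glmQLFit, glmQLFTest) in R 4.3.3, with Benjamini-Hochberg adjustment over all genes tested and a threshold of 0.05. Because 1 model held all libraries, the groups shared 1 estimate of the spread. Each SE was derived from the F statistic and its log2 fold change. Tested on simulated counts for the bone marrow against MC903 resident comparison (18335 genes, 200 of them changed), the procedure recovered 86% of genes at a log2 fold change of 4, 52% at 2, 40% at -2 and 78% at -4, with 2 false calls. The changed genes were drawn from those averaging at least 5 CPM, with 1 random seed and no library set apart like library 15. Ciita and Cd80 were under that level in every group, so these rates are not the power for the 10 genes.

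The 10 genes, the gene lists and the cell type markers were chosen with earlier results of these data known. Named from each list were the called genes with the largest changes, up to 4 a comparison, and otherwise the 2 highest by level, and for likeness the 3 genes with the highest r among those averaging 5 CPM or more. Genes outside this rule (Irf8, Irf4, Cd40, Spi1, the promoter factors and single cell type markers) were named after their values were seen. Alternatives were DESeq2 size factors, no filter, a minimum mean of 10 CPM, protein-coding genes only, DESeq2 1.42.0, limma 3.58.1 (voomWithQualityWeights), only the groups compared, and leaving out each library. Leaving out libraries 14 and 15 together, and TMM factors from genes averaging 10 CPM or more, were chosen after seeing the data. Motifs were searched on both strands of the RefSeq promoter windows, and figures were drawn with matplotlib 3.10.9.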

Additional observations from a re-analysis of the deposited data

Results flagged for a closer look

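Dixon's gap test at the 95% level compared the highest or lowest library with the rest in 30 sets (10 genes in 3 groups). Chance passes it in about 1 of 20 sets only where values are normally distributed and sets independent. These CPM are skewed and often 0, and the sets share the same libraries, so that rate does not apply here. The gap test was passed in 17 of 30, with the high value in library 15 in 8 of them, which is a description only. In bone marrow cells the value of library 15 lay apart from the next highest for Cd74 (2712 against 45.3 CPM), H2-Ab1 (945 against 27.2 CPM), H2-Aa (716 against 15.3 CPM), Cd83 (512 against 28.9 CPM), H2-Eb1 (494 against 20.2 CPM), H2-DMa (144 against 24.7 CPM), Ciita (18.5 against 0 CPM) and Cd80 (0.505 against 0.0425 CPM).

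In untreated resident cells library 5 lay apart for H2-Eb1 (29.9 against 8.33 CPM), H2-Aa (21.5 against 3.52 CPM), H2-Ab1 (19.8 against 6.90 CPM) and H2-DMb1 (35.96 against 26.1 CPM). Its macrophage markers summed to 138 CPM, with 6 of 12 at 0, against 56.7 to 105 CPM in the other untreated libraries, and their part in these values was not tested. Library 2 lay apart for Cd80 (2.53 CPM) and library 3 for Cd83 (1.35 CPM).

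In MC903 resident cells library 8 lay apart for H2-Aa (3.73 CPM) and Cd86 (4.95 CPM), and library 7 for Ciita (10.04 CPM). Both had more genes with a count (34560 in library 7 and 35246 in library 8) than any other library, at the smallest totals, and the part of this in these values was not tested.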

How the results depend on the processing

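Between MC903 resident and untreated resident cells 0 of the 10 genes were called under every alternative run, with 1.36% (no filter) to 7.88% (minimum mean of 10 CPM) of all genes called. Against MC903 resident cells the count of called genes in bone marrow cells was 1 in the main analysis, 2 with no filter (1.54% of all genes called), 3 with a minimum mean of 10 CPM (6.86%), 2 with protein-coding genes only (3.05%), 2 with limma (9.86%) and 1 with DESeq2 (8.58%; H2-DMa, 4.42, since Cd83 got no adjusted p), and from 1 to 1 with single libraries left out; against untreated resident cells it was 2 to 4, with 3.31% (no filter) to 21.6% (minimum mean of 10 CPM) of all genes called, and 2 to 3 with single libraries left out. H2-DMb1 ranked 6 by level in bone marrow cells and 1 without library 15.

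Of 514 values of single genes, 467 kept direction and side of the threshold and 25 changed sign, none of them called. With limma the sign changed for H2-Eb1 (0.78) and H2-DMa (0.34) between resident groups and for Ciita in both bone marrow comparisons (-5.15 and -4.22). With single libraries left out, the bone marrow value ranged from -9.19 to 1.46 (against MC903 resident cells) and -8.33 to 1.77 (against untreated resident cells) for Ciita, and against untreated resident cells from -0.15 to 6.71 for H2-Aa and -0.15 to 5.55 for H2-Eb1, the lowest each time without library 15. Without libraries 14 and 15 it changed for H2-Aa (-7.38 and -9.95), H2-Eb1 (-0.79 and -3.17), Ciita (-9.13 and -8.32) and Cd86 (-1.10 and -1.07). With single libraries left out, the resident comparison ranged from -0.19 to 0.45 for Cd74, -2.55 to 0.29 for Cd83, -1.85 to 1.31 for Cd86 and -0.11 to 1.32 for Ciita. The cause was not tested.

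With DESeq2 size factors the all-gene median moved from 0.24 to 0.40, from -0.28 to -0.43 and from -0.14 to -0.14, and no direction of the 10 genes changed. The calls between resident groups went from 120 higher and 353 lower to 207 and 294. DESeq2's test gave no adjusted p for H2-Aa, H2-Ab1, H2-Eb1, Cd74 and Cd83. With a prior count of 0.5, 21 of the 24 nearest genes were kept over 14 libraries and 19 of 24 over 13. No paired analysis was possible because the labels name no mouse for any library. Replicate numbers are library numbers and do not show whether groups share mice. MC903 resident and bone marrow libraries may come from the same mice, and such a pairing could not be modelled. By depth alone, the floor of 3 counts is about 0.1 to 0.2 CPM, which covers counting error only. H2-Eb1 ran from 0 to 671 counts among untreated resident libraries, and 0 counts need not mean so low a level in the cells.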
